A study of Mus musculus with 8 samples.

Results

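The 9 genes described here are the chemokine genes Cxcl12, Cx3cl1, Cxcl1, Cxcl9, Cxcl10, Ccl2, Ccl6 and Ccl9 and the receptor gene Cxcr4. They were taken by symbol from the 41128 gene IDs of the deposited tables, and all 9 were found under a single ID each. They were selected on their normalized counts and fold changes between knockout and wild-type libraries in these same data. Differences of these genes between the groups are therefore a description and carry no test of their own. Of the 9 genes, 7 passed the filter on low counts and were among the 16551 genes tested, and Cxcl9 and Cxcl10 did not pass.

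The series concerns a super enhancer, meaning many regulatory elements packed close together, beside Nppa and Nppb, the genes of atrial and B-type natriuretic peptide. RNA-seq was done on left ventricles of FVB mice aged 8 to 12 weeks. One group of 4 samples was homozygous for a CRISPR deletion of the element RE1 in this locus, and the other group of 4 came from wild-type littermates. The labels do not give the number of founder lines, nor whether each sample is 1 animal, so the errors measure the spread between samples. The chi-square between the counts of a pair of libraries, averaged over genes, was 3.14 for knockout replicates 1 and 3. It was 3.54 for knockout replicates 2 and 4, and 14.2 to 16.1 for the other knockout pairs. Wild-type pairs ran from 4.96 to 13.0. What these knockout replicates share is not stated, so the 4 knockout samples may not be independent of each other. The labels' protocols also list Myh6-MerCreMer, nTnG and Sun1/sfGFP mice on the FVB/N background, without saying that the mice of these libraries carried those alleles.

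Gene counts per library totalled 16778368 to 37133306. Nppa and Nppb lay at 327 or more normalized counts in every wild-type library and at 11.01 or fewer in every knockout library, so each library matched its label. Summed markers of cardiomyocytes stood between 62849 and 68848 CPM, which are read counts scaled to a common library size, in all 8 libraries.

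Chemokines are small secreted proteins that guide the migration of cells through G-protein-coupled receptors. They are sorted into families by the spacing of their first conserved cysteines, which are adjacent in the CC family, separated by a single residue in the CXC family and by a longer spacer in CX3C. Cxcl12 is made constitutively by stromal and vascular cells and acts through Cxcr4, while the atypical receptor Ackr3 binds and removes it. In the heart this axis is known for its part in coronary vessel formation and in the homing of cells after injury. Most of the other genes here are inflammatory chemokines, which are induced by cytokines and recruit monocytes, neutrophils or lymphocytes.

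The cysteine spacing that defines these families is illustrated with the coding sequences of the 8 ligand genes (GENCODE M21 transcripts, GRCm38). The capitals mark the codons of the first pair of conserved cysteines, with the neighbouring codons on each side.
Cxcl12: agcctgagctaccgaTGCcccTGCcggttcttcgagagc
Cxcl1: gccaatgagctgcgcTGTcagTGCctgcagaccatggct
Cxcl9: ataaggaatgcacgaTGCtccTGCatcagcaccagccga
Cxcl10: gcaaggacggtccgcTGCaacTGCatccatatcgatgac
Cx3cl1: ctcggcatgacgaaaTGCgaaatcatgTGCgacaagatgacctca
Ccl2: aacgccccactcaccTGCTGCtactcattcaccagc
Ccl6: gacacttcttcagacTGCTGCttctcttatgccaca
Ccl9: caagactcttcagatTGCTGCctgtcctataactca
Cxcl12, Cxcl1, Cxcl9 and Cxcl10 have 1 codon between the pair, Cx3cl1 has 3, and Ccl2, Ccl6 and Ccl9 have 0. Each pair was searched for at the spacing of the family in the gene's name, so these spacings are an illustration and not a test. None of the 9 genes shared an identical 100-base stretch of annotated transcript with another gene. Copies with mismatches in each such stretch, or without annotation, were not searched for.

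Promoter sequences of 250 bases before to 50 bases after the start site were found in RefSeq (GRCm38.p6) for 8 of the 9 genes, and 5 motifs were searched on both strands. GC boxes (GGGCGG), which bind the Sp1 family, occurred in the promoters of Cxcl12, Cxcr4 and Cx3cl1 and in 35.7% of all 32851 promoters. A match to the NF-κB motif (GGGA, any 2 bases, TTCC), the site of the main factor of cytokine induction, occurred in those of Cxcl1 and Cxcl10 and in 1.47% of all. The interferon-stimulated response element (GAAA, any 2 bases, GAAA) occurred in that of Cxcl10 and in 3.44% of all. The E-box CACGTG, bound by the clock factors, was in none of the 8 and in 7.15% of all, and the gamma-activated site TTCNNNGAA was in none of the 8 and in 8.30% of all. A match is a string of letters and not a measured site. The 250 bases before the start sites of Cxcl12, Cxcr4 and Cxcl10 follow, because Cxcl12 and its receptor are the pair at the centre of the comparison and Cxcl10 holds both cytokine-related motifs. The capitals mark matches to any of these motifs.
Cxcl12 (chr6:117168285-117168584, plus strand, GRCm38.p6, for the whole window): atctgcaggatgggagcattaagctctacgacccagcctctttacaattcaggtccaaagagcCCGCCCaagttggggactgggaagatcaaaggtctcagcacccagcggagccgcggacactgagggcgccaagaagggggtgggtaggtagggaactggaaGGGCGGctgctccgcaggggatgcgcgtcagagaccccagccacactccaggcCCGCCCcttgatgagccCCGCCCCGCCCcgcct
Cxcr4 (chr1:128592250-128592549, minus strand): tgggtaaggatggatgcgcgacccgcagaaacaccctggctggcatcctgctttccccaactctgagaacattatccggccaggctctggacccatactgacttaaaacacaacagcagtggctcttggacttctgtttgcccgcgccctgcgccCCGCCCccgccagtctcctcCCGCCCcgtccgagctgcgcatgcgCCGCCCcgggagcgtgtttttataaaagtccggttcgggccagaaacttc
Cxcl10 (chr5:92348840-92349139, minus strand): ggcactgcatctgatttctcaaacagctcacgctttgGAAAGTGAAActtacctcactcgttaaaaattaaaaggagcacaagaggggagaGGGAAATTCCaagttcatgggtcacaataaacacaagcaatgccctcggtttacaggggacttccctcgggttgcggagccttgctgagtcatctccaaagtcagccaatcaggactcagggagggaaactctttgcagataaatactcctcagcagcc
Among the 3 sequences shown, matches overlap at 1 place, in Cxcl12, where a pair of GC boxes share a base. The 300-base windows of Cxcl12, Cxcr4 and Cx3cl1 held 20, 20 and 19 CG pairs, against a median of 7 over all promoters, and that of Cxcl10 held 10. Those of Ccl6 and Ccl9 held 2 each.

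Cxcl12 was the most abundant of the 9 genes and the only one of the 7 tested that passed the threshold of an edgeR adjusted p under 0.05, being lower in the knockout. With an index of circadian clock genes as a covariate, a fit in which Nppa did not pass either, Cxcl12 did not pass (log2 fold change −0.28, SE 0.10, edgeR adjusted p = 0.598). It lies on chromosome 6 at 117168535 to 117181367 (GRCm38, plus strand, ENSMUSG00000061353). Its level was 4558, 4105, 4267 and 3845 normalized counts in wild-type replicates 1 to 4. In knockout replicates 1 to 4 it was 3081, 3370.1, 3232 and 3369.7 normalized counts. All 4 knockout libraries lay below all 4 wild-type libraries, and the groups did not overlap. The means were 4194 ± 299 and 3263 ± 138 normalized counts (SD, n = 4 each), 22.2% lower in the knockout on the edgeR fit (log2 fold change −0.36, SE 0.05). In the authors' deposited table, with its sign turned to knockout over wild type, the log2 fold change was likewise −0.36. Over all genes tested, 1.06% passed the threshold, 0.689% being lower and 0.375% higher in the knockout. Groups that did not overlap were seen with the knockout lower for 3.85% and with the knockout higher for 3.38% of them. In whole tissue, fewer cells of a type and less RNA per cell cannot be told apart.

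**Figure D1:**
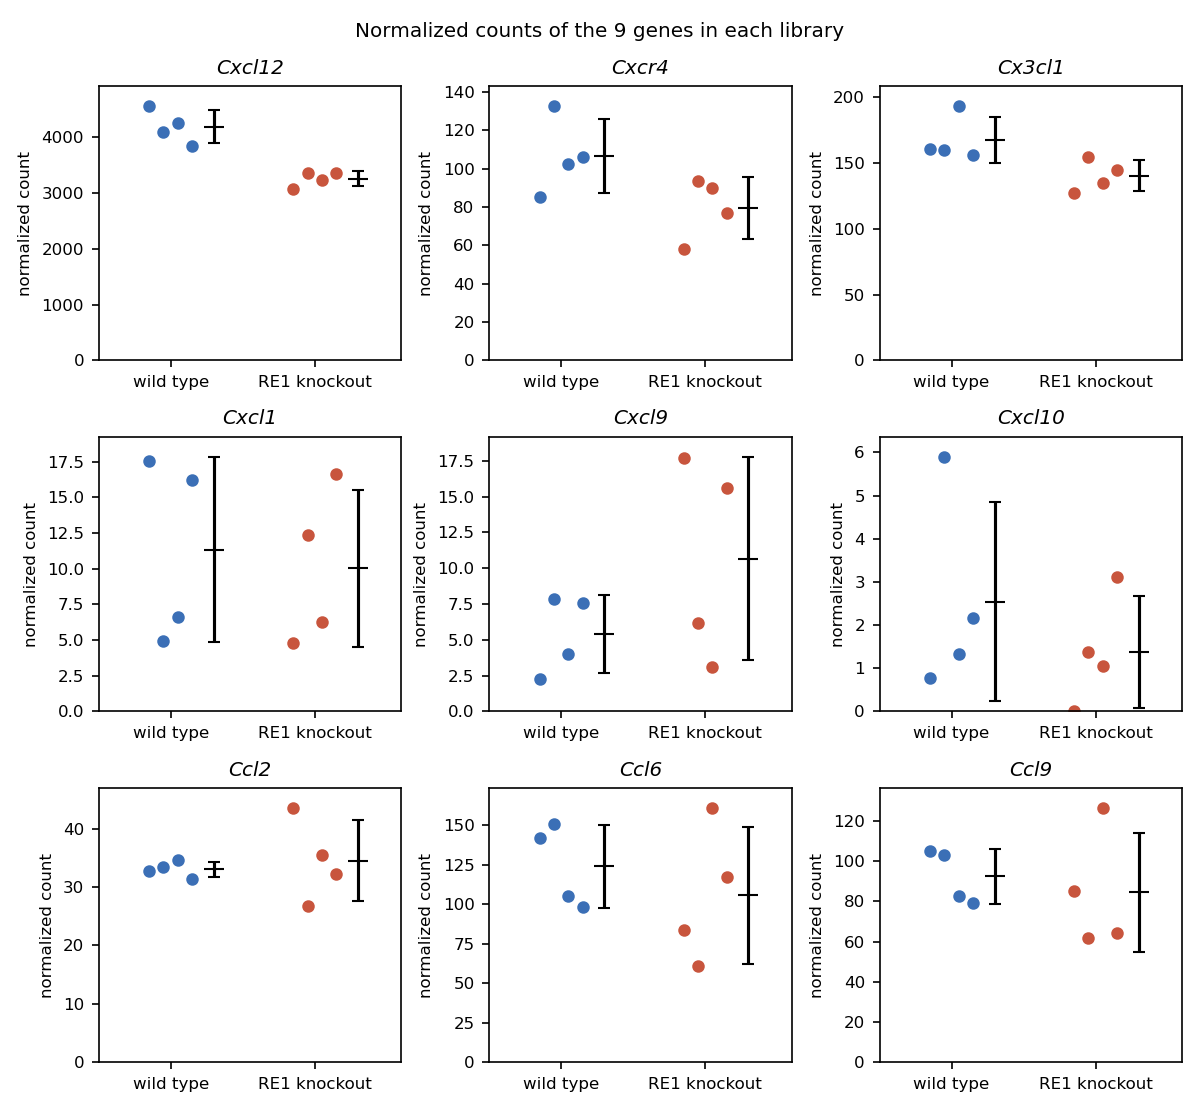
Normalized counts (vertical axes, from 0, different in each panel) of the 9 genes in the 4 wild-type (blue) and 4 RE1 knockout (red) libraries, replicates 1 to 4 from left to right, with the mean and SD in black. The groups lie apart for Cxcl12 (3845 to 4558 against 3081 to 3370.1) and for Cx3cl1, and overlap for the other 7 genes.

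Cxcr4, which encodes the signalling receptor of Cxcl12, was far less abundant. It lies on chromosome 1 at 128588199 to 128592293 (minus strand). Its level was 85.4, 132, 102 and 106 normalized counts in wild-type libraries 1 to 4, compared with 58.0, 93.6, 89.8 and 76.9 in knockout replicates 1 to 4. The groups overlapped, since knockout replicates 2 and 3 lay above wild-type replicate 1. The log2 fold change was −0.38 (SE 0.16), close to that of Cxcl12 but with a wider error, and it did not pass the threshold. Without wild-type replicate 2, its highest library, the value was −0.25. That library also had the highest sum of macrophage and monocyte markers, 277 CPM against 201 to 230.3 CPM in the other 7, and their part in the value was not tested. Raw counts of Cxcr4 were 36 to 136 per library, against 1914 to 5976 for Cxcl12.

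Ackr3, the atypical receptor that takes up Cxcl12, is given for this role and not by the rule for named genes. Its level was 1403, 1340.2, 1671 and 1513 normalized counts in wild-type libraries 1 to 4, compared with 1389, 1271, 1672 and 1485 in knockout replicates 1 to 4. The groups overlapped across almost their whole range, the log2 fold change being −0.03 (SE 0.09, with an edgeR adjusted p of 0.939). Per kilobase of exon, Ackr3 was at 16.8 ± 1.63 CPM and Cxcr4 at 2.24 ± 0.409 CPM in wild-type ventricles (SD, n = 4 each). Ackr3 exceeded Cxcr4 in every library, by 5.46 to 8.87 times in wild-type and 7.33 to 12.9 times in knockout libraries on this length-scaled level. The ratio of Cxcl12 to Ackr3 on the same scale was 1.04 to 1.33 in wild-type and 0.792 to 1.09 in knockout libraries, which overlap. That of Cxcl12 to Cxcr4 was 6.85 to 11.8 and 7.96 to 11.8.

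Cx3cl1 encodes fractalkine, a membrane-tethered chemokine of endothelial cells. It lies on chromosome 8 at 94772009 to 94782427 (plus strand). Its level was 160.2, 159.9, 193 and 156 normalized counts in wild-type libraries 1 to 4, compared with 127, 154, 135 and 144 in knockout replicates 1 to 4. The groups did not overlap, although the highest knockout library, replicate 2 at 154.1, lay just under the lowest wild-type library, replicate 4 at 155.9. The log2 fold change was −0.23 (SE 0.11), and the gene did not pass the threshold. Groups that do not overlap, in either direction, were seen for 7.23% of all genes tested. Its receptor gene Cx3cr1, found on macrophages and monocytes, was at 0.34 on the log2 scale of change (SE 0.20, with an edgeR adjusted p of 0.524), the wild-type libraries spanning 86.6 to 149 and the knockout libraries 109.5 to 199.6 normalized counts.

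Among the inflammatory CC chemokines, Ccl2 recruits monocytes through Ccr2. It lies on chromosome 11 at 82035571 to 82037453. Its level was 32.8, 33.4, 34.6 and 31.4 normalized counts in wild-type libraries 1 to 4, compared with 43.5, 26.8, 35.5 and 32.2 in knockout replicates 1 to 4. The wild-type libraries lay close together and inside the range of the knockout libraries, with a log2 fold change of 0.02 (SE 0.21). Its receptor gene Ccr2 was at 0.16 (SE 0.23, edgeR adjusted p = 0.825).

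Ccl6 and Ccl9 are neighbouring genes of a rodent CC chemokine cluster on chromosome 11 (Ccl6 at 83587882 to 83593087 and Ccl9 at 83572919 to 83578636, both on the minus strand), expressed by myeloid cells and acting through Ccr1. Ccl6 was at 142, 151, 105 and 98.5 normalized counts in wild-type libraries 1 to 4, compared with 83.7, 61.2, 161 and 117 in knockout replicates 1 to 4. For Ccl9 the values were 105, 103, 82.5 and 79.0 in wild-type libraries, against 85.3, 61.9, 126 and 64.4 in the knockout. Both genes were highest in knockout replicate 3 and lowest in knockout replicate 2, so the knockout libraries spanned the whole wild-type range. The log2 fold changes were −0.26 (SE 0.30) for Ccl6 and −0.17 (SE 0.21) for Ccl9. Both values rested on single libraries: leaving out knockout replicate 3 gave −0.55 and −0.44, while leaving out knockout replicate 2 gave −0.028 and −0.015. Ccl6 was at −0.16 when wild-type replicate 2 was dropped. Ccl9 was at −0.090 when wild-type replicate 1 was dropped and at −0.061 when knockout replicate 4 was. Neither gene passed in any of these fits. Their receptor gene Ccr1 was at −0.35 on the log2 scale of change (SE 0.39, with an edgeR adjusted p of 0.763). It stood at 54.9 normalized counts in wild-type replicate 2 against 14.1 to 24.0 in the other 7 libraries.

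Cxcl1, a neutrophil attractant that acts through Cxcr2, was near the lower limit of what these libraries measure. It lies on chromosome 5 at 90891241 to 90893115. The raw counts were 23, 5, 5 and 15 in wild-type libraries 1 to 4, compared with 3, 18, 6 and 16 in knockout replicates 1 to 4. Each group held a pair of higher and a pair of lower libraries, and the log2 fold change was −0.15 (SE 0.44). On pooled counts the ratio of knockout to wild type was 0.898, with a 95% interval of 0.581 to 1.38 that covers counting error only. Its receptor gene Cxcr2, given for its role, did not pass the filter on low counts. It had 5, 14, 4 and 9 reads in wild-type and 1, 3, 6 and 3 reads in knockout replicates 1 to 4. The groups overlapped, the most reads being in wild-type replicate 2. On pooled counts of 32 and 13 the ratio of knockout to wild type was 0.407, with a counting interval of 0.196 to 0.798 that leaves out the variation between samples.

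The interferon-induced genes Cxcl9 and Cxcl10, whose products attract T cells through Cxcr3, lie close together on chromosome 5 (92321347 to 92328079 and 92346638 to 92348889, minus strand). Cxcl9 had raw counts of 3, 8, 3 and 7 in wild-type libraries 1 to 4, compared with 11, 9, 3 and 15 in knockout replicates 1 to 4. The groups overlapped, and the knockout excess lay in replicates 1 and 4. On pooled counts of 21 and 38 the ratio of knockout to wild type was 1.81, with a counting interval of 1.04 to 3.25 that leaves out the variation between samples. Cxcl10 had raw counts of 1, 6, 1 and 2 in wild-type libraries, against 0, 2, 1 and 3 in the knockout. Its pooled ratio was 0.601 with a counting interval of 0.180 to 1.83, so a difference was not detectable at this depth. The exons of Cxcl10 overlap those of Art3 on the opposite strand, and the sources used here do not state the strand setting of the counts. Cxcr3 had 7 reads in the wild-type and 11 in the knockout libraries.

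Per kilobase of exon, the order of the 9 genes in wild-type ventricles was Cxcl12, Ccl6, Cxcr4, Cx3cl1, Ccl9, Ccl2, Cxcl1, Cxcl9 and Cxcl10. Cxcl12 was at 19.5 ± 1.38 CPM per kilobase, 7.42 times the next gene, Ccl6, at 2.63 ± 0.556 (SD, n = 4 each). Cxcl10 stood at the other end, at 0.0428 ± 0.0389. Ccl6 and Cxcr4, Cxcr4 and Cx3cl1, Ccl9 and Ccl2, and Cxcl9 and Cxcl10 overlapped as neighbours in this order and did not differ beyond their spread. The ranges of Cxcl12 and Ccl6, of Cx3cl1 and Ccl9, and of Ccl2 and Cxcl1 lay apart, and those of Cxcl1 and Cxcl9 were apart only narrowly, at 0.0994 and 0.0989 CPM per kilobase. In the knockout the order was the same except that Ccl2 and Ccl9, whose ranges overlapped, changed places.

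**Figure D2:**
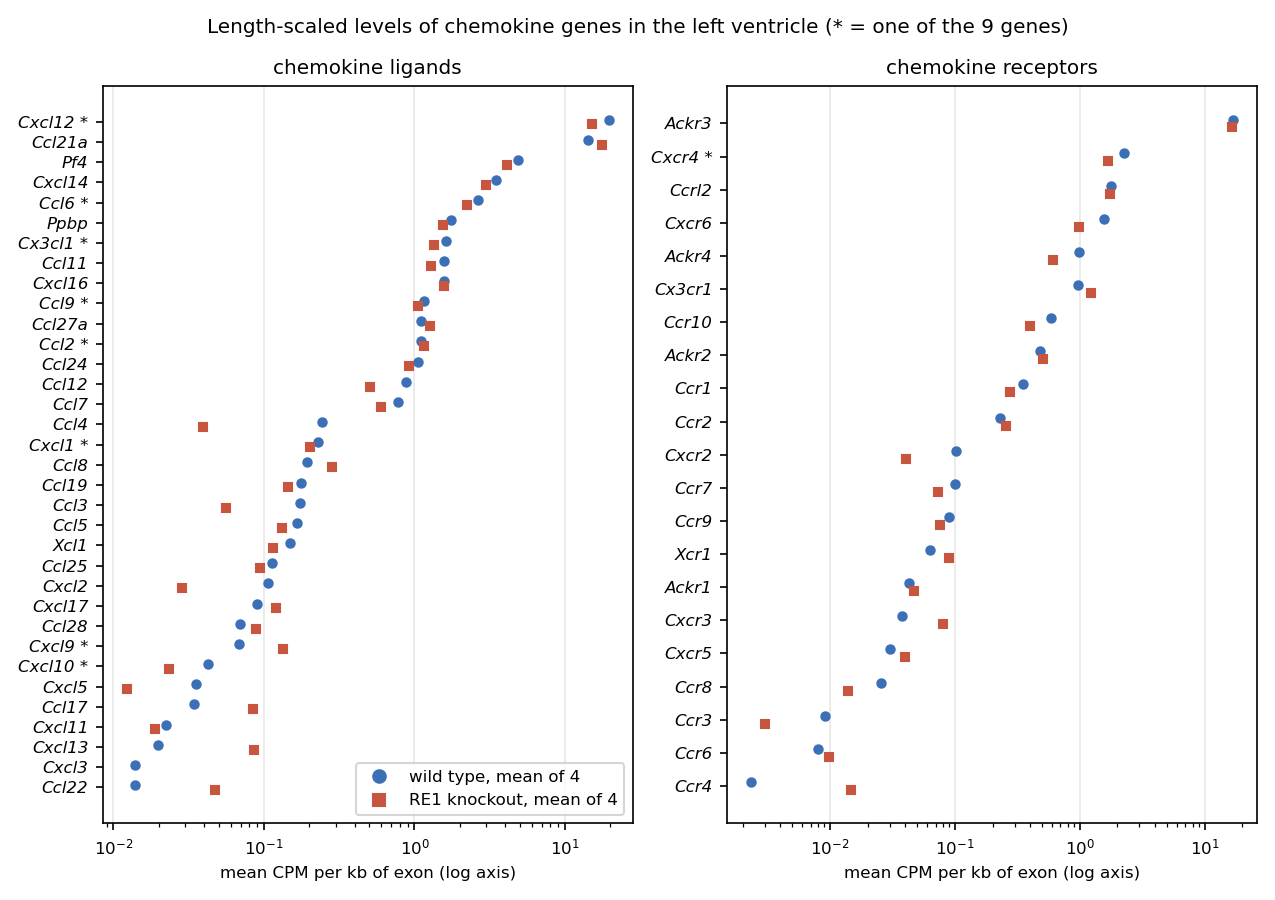
Mean CPM per kilobase of exon (horizontal, log axis) of chemokine ligand genes (left) and receptor genes (right) in wild-type (blue circles) and RE1 knockout (red squares) ventricles, ordered by the wild-type mean. Asterisks mark the 9 genes described, and genes at 0 and 1 receptor gene are left out. Cxcl12 leads the ligands at 19.5 in wild type, where Ccl21a is next at 14.3, and Ackr3 leads the receptors at 16.8.

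Among 37 ligand genes, the 8 above and 29 others, Cxcl12 took 73.4% to 75.4% of the reads in wild-type and 66.7% to 72.0% in knockout libraries. Exact binomial 95% intervals, which cover counting error only, ran from 72.1% to 76.3% and from 65.0% to 73.3% at their widest. Because Cxcl12 has long transcripts, its share was smaller per kilobase of exon, at 31.6% to 34.4% in wild-type and 24.1% to 30.2% in knockout libraries. The summed level of all ligands other than Cxcl12 was 52.9 to 56.5 CPM in wild-type and 49.6 to 58.3 CPM in knockout libraries, and these ranges overlap. In the knockout Ccl21a, a lymphatic chemokine, had a higher mean than Cxcl12, at 17.6 ± 3.56 against 15.2 ± 0.648 CPM per kilobase (SD, n = 4 each). That mean rested on knockout replicates 1 and 2, since Ccl21a was at 499, 441, 339 and 331 normalized counts in knockout replicates 1 to 4. The level of Cxcl12 also depends on the length used, being 22.0 CPM per kilobase of its longest transcript in the knockout. In addition, 50.3% of the 100-base stretches of Ccl21a also occur in Gm21541, so the count of Ccl21a is uncertain.

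None of the other chemokine ligand genes passed the threshold. Of 29 listed, 11 were tested, 8 with a negative and 3 with a positive log2 fold change, and the median was −0.21, against 0.00 over all genes tested. By unadjusted p under 0.05 the list had 0 genes in edgeR, against 13.0% of all genes tested, and DESeq2 called 0. Ccl21a was at 0.29 (SE 0.14), Cxcl14 at −0.26 (SE 0.15), the platelet chemokine gene Pf4 at −0.25 (SE 0.15) and Ccl11, which encodes the eosinophil attractant eotaxin, at −0.31 (SE 0.24). The value of Ccl11 was −0.039 without wild-type replicate 2. For these 4 genes the edgeR adjusted p ran from 0.405 to 0.629. Of the 18 not tested, Ccl1, Ccl20 and Cxcl15 had no read in any library.

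The other receptor genes showed no call either. Of 22 listed, 11 were tested, 8 negative and 3 positive, with a median of −0.19. Ackr4, an atypical receptor that removes CC chemokines such as those of lymphatic vessels, had the smallest p. The wild-type libraries held 135, 198, 101 and 120.2 normalized counts and the knockout libraries 91.8, 77.8, 85.6 and 92.5, groups that did not overlap (log2 fold change −0.70, SE 0.18, edgeR adjusted p = 0.0751). Its exons overlap those of Acad11 on the opposite strand. Cxcr6, the receptor of Cxcl16 on lymphocytes, was at −0.64 (SE 0.19, edgeR adjusted p = 0.135), with wild-type replicate 3 inside the knockout range. Ccr10, a receptor of skin-homing lymphocytes, was at −0.49 (SE 0.27, edgeR adjusted p = 0.468). By unadjusted p under 0.05 edgeR had 2 of the 11 tested, against 13.0% of all genes tested, and DESeq2 called 1, Ackr4. Limma-voom called 0 genes in each of the 6 pathway lists. Ackr4 and Cxcr6 both passed when wild-type replicate 3 was left out.

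**Figure D3:**
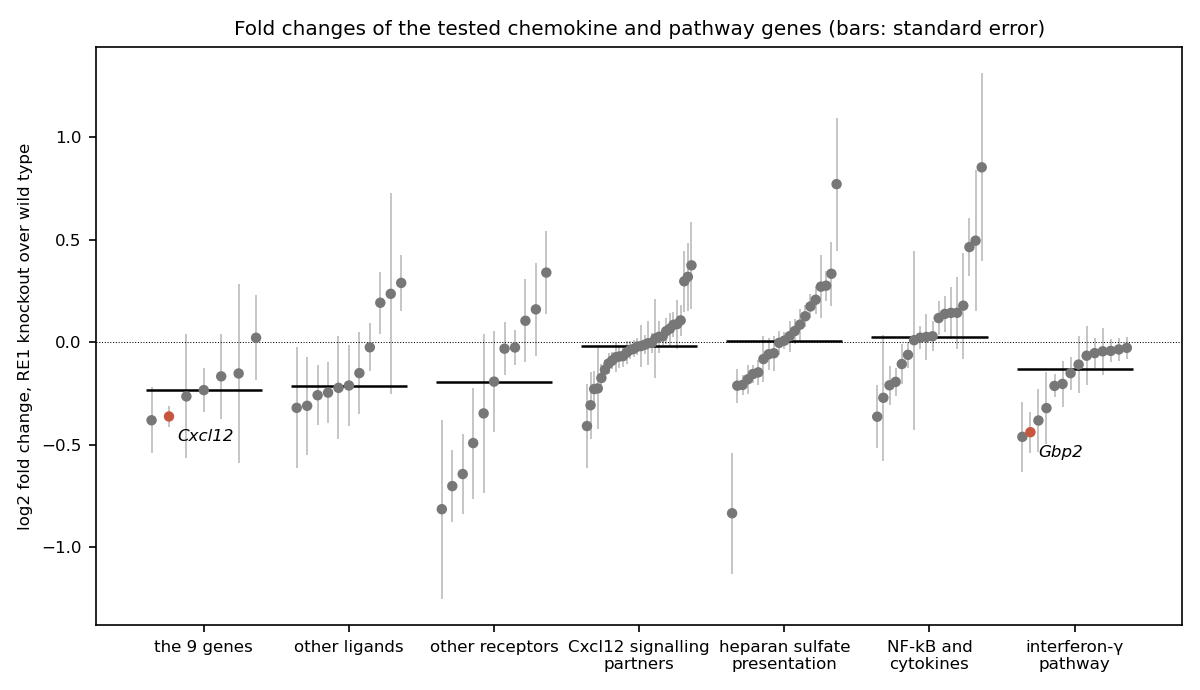
Log2 fold change of RE1 knockout over wild type (vertical axis) for each tested gene of the 9 genes and of the 6 pathway lists, sorted within a list, with SE as grey bars and the list's median as a black line. Red points passed an edgeR adjusted p under 0.05, namely Cxcl12 at −0.36 and Gbp2 at −0.44, and grey points did not.

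Genes that carry the Cxcl12 signal onward differed little. Of 31 signalling partners 30 were tested, 0 rose, 0 fell, and the median log2 fold change was −0.02. By unadjusted p under 0.05 edgeR had 3 of the 30, against 13.0% of all genes tested, and DESeq2 called 0. Ptk2, which encodes focal adhesion kinase, was at −0.13 (SE 0.05), the kinase gene Mapk3 at −0.23 (SE 0.09), the adhesion adaptor gene Pxn at −0.17 (SE 0.07) and Gnai2, an inhibitory G protein subunit that chemokine receptors use, at −0.09 (SE 0.04). All 4 had an edgeR adjusted p between 0.241 and 0.386.

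Heparan sulfate holds chemokines on the surface of endothelial cells and in the matrix. Of 22 genes for its core proteins and enzymes 21 were tested, and 0 rose and 0 fell, with a median of 0.01. In edgeR 12 had an unadjusted p under 0.05, which over all genes held for 13.0%, and DESeq2 called 1, Agrn. Agrn, the proteoglycan agrin, was at 1470.1 ± 46.3 normalized counts in wild type against 1272 ± 70.8 in the knockout (SD, n = 4 each), a log2 difference of −0.21 (SE 0.05) whose edgeR adjusted p was 0.0560. Hspg2, which encodes perlecan, was at −0.16 (SE 0.05, edgeR adjusted p = 0.124). In the other direction lay the 6-O-sulfotransferase gene Hs6st1 at 0.28 (SE 0.07, edgeR adjusted p = 0.0781) and the sulfatase gene Sulf1 at 0.21 (SE 0.07, edgeR adjusted p = 0.176). The groups did not overlap for 6 of the 21 tested, among them Agrn, Hspg2 and Hs6st1, against 7.23% of all genes tested.

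Genes upstream of the inflammatory chemokines fall into a pair of lists. Of 21 NF-κB and cytokine genes 18 were tested, 0 rose and 0 fell, with a median of 0.03. In edgeR 4 of the 18 had an unadjusted p under 0.05, against 13.0% of all genes tested, while DESeq2 called 0. Socs3, a cytokine-induced inhibitor, was at 0.46 (SE 0.14, edgeR adjusted p = 0.138), the NF-κB subunit gene Rela at −0.19 (SE 0.07), and the leukocyte adhesion genes Vcam1 and Icam1 at −0.36 (SE 0.15) and −0.21 (SE 0.09), with edgeR adjusted p from 0.230 to 0.349 for these 3. Of 16 genes of the interferon-γ pathway 14 were tested, all 14 with a negative log2 fold change and a median of −0.13. Over all genes tested, 49.95% were negative and 0.689% fell. This list was chosen with earlier results known, and 1 of its genes fell. This was Gbp2, which encodes an interferon-induced GTPase, from 379.6 ± 56.5 normalized counts to 281 ± 24.4 (SD, n = 4 each), a log2 difference of −0.44 (SE 0.10) whose edgeR adjusted p was 0.0438. Wild-type replicate 3, at 307, lay below knockout replicate 2, at 314. The call of Gbp2 ended in 7 of the 8 fits without a library. Jak1, a kinase of interferon receptors, was at −0.21 (SE 0.06, edgeR adjusted p = 0.0789), and Cd274, Psmb9 and Irf1 were at −0.46 (SE 0.17), −0.38 (SE 0.15) and −0.15 (SE 0.08), with edgeR adjusted p from 0.244 to 0.453.

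The genes whose log2 CPM followed Cxcl12 most closely over the 8 libraries, out of 8628 genes with a mean log2 CPM of at least 3, were Fmnl2, Hic1, Tspan4, Dmxl2 and Crim1. Pearson r ran from 0.960 to 0.966, and from 0.702 to 0.835 after the group means were subtracted. Of these genes Hic1 and Tspan4 passed the threshold, both lower in the knockout. Hic1 was at −0.72 (SE 0.08, edgeR adjusted p = 0.00128) and Tspan4 at −0.77 (SE 0.14, edgeR adjusted p = 0.0224). These calls were kept in 15 and 11 of 16 alternatives. The genes most opposed to Cxcl12 included Cxadr, Loxl1, Ap1b1 and Abce1, with r from −0.986 to −0.960, and from −0.924 to −0.889 after subtraction. Cxadr encodes the coxsackievirus and adenovirus receptor of intercalated discs. Its wild-type libraries spanned 1425 to 1602 and its knockout libraries 1729 to 1758 normalized counts, higher in all 4 knockout libraries. Cxadr passed the threshold at an adjusted p of 0.04 in edgeR, higher by 0.21 log2 units (SE 0.05). That call was kept in 6 of 16 alternatives, and in 1 of the 8 fits that left out a library. Because Hic1, Tspan4 and Cxadr were picked for their r with Cxcl12 over these same libraries, their group differences are not independent of that choice. Cxcr4 was followed most closely by Pnpla6, Bap1, Ulk2, Pofut1 and Ubl5, with r from 0.956 to 0.980 and from 0.949 to 0.966 after subtraction. The 8 libraries share the group difference, and these values are a description.

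Markers of cells that could hold these transcripts moved with the groups to different degrees. Over all genes tested, 49.95% had a negative log2 fold change, 0.689% fell and 0.375% rose. Of 20 endothelial markers 17 were negative and 4 fell, and their summed level was 1341 to 1421 CPM in wild-type and 1206 to 1335 CPM in knockout libraries. Of 10 arterial endothelial markers 9 were negative and 0 fell, and their summed ranges overlapped, at 105.7 to 115 and 98.2 to 113 CPM. Mural cell markers, of pericytes and smooth muscle, summed to 1288 to 1333 and 1281 to 1353 CPM, and macrophage and monocyte markers to 203 to 277 and 201 to 230.3 CPM, with 0 of 12 and 0 of 13 called. Of 12 fibroblast markers 11 were positive and 2 rose, with sums of 1910 to 2196 and 2208 to 2294 CPM. Mesothelial markers summed to 4.25 to 15.7 and 10.6 to 31.1 CPM, low levels whose ranges overlap. All 7 tested were positive, with a median log2 fold change of 1.80, and 0 of 7 were called. The part of these cell types in the values of Cxcl12 was not tested.

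**Figure D4:**
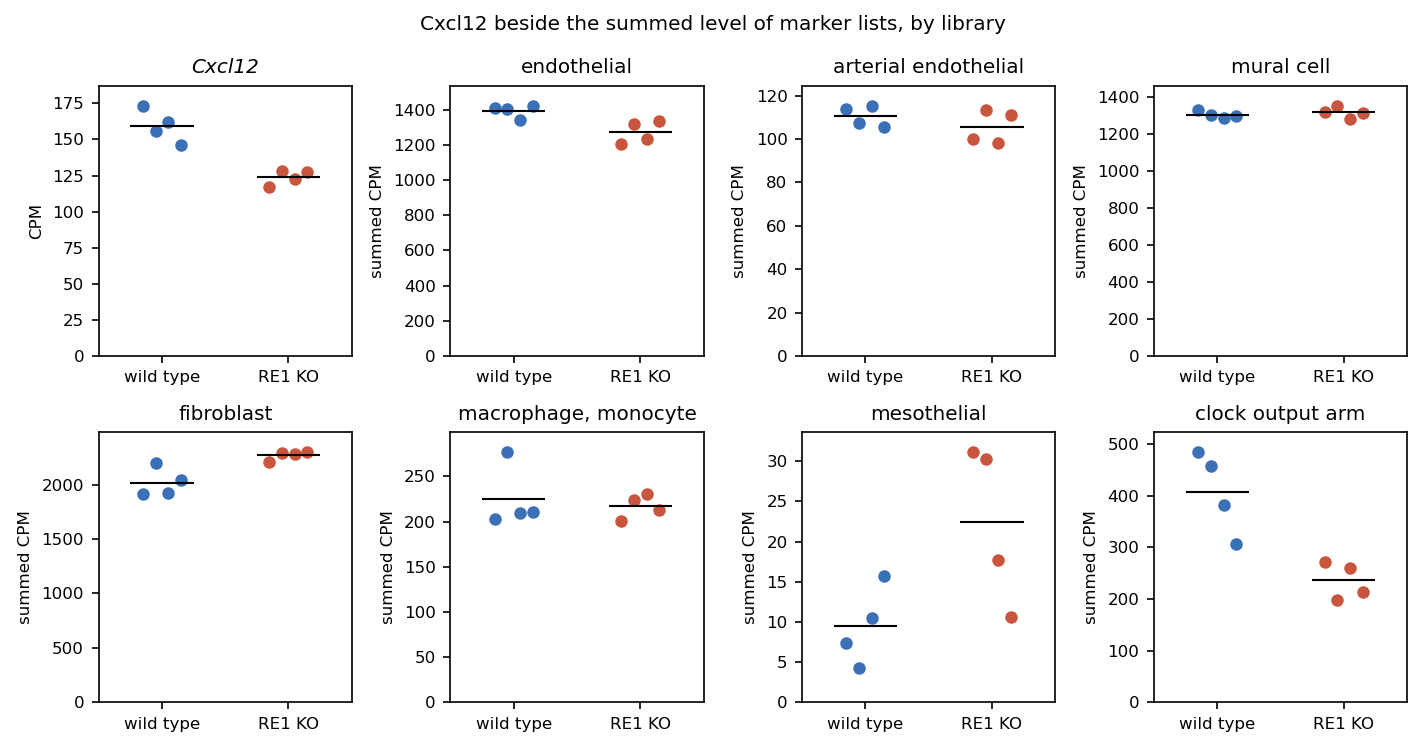
Cxcl12 (CPM, first panel) and the summed CPM of 7 marker lists (vertical axes from 0) in the 4 wild-type (blue) and 4 RE1 knockout (red) libraries, with the mean as a black line. The groups lie apart for Cxcl12, for the endothelial markers (1341 to 1421 against 1206 to 1335 CPM), the fibroblast markers and the clock output arm, and overlap for the other lists.

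Relative to single endothelial genes on the length-scaled level, Cxcl12 was at 0.978 to 1.18 times Pecam1 in wild-type and 0.882 to 0.951 times in knockout libraries. The corresponding ratios to Cdh5 were 0.734 to 0.929 and 0.667 to 0.712. Both ratios lay lower in all 4 knockout libraries, and that to Kdr overlapped between the groups (0.704 to 0.947 and 0.673 to 0.722). The ratio to the mural cell gene Pdgfrb was 1.103 to 1.36 and 0.929 to 1.087, also lower in all 4 knockout libraries. That to the fibroblast gene Col1a2 overlapped, at 1.39 to 2.29 and 1.19 to 1.49. Pecam1, Cdh5 and Kdr mark endothelial cells at large, and all of these genes were chosen after the values of the lists had been seen.

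Neutrophil and lymphocyte markers were low. Those of neutrophils summed to 23.3 to 24.2 CPM in wild-type and 20.8 to 28.2 CPM in knockout libraries, with Ly6g at 0 reads in all libraries and Retnlg, Ngp and Camp at no more than 3 reads in any. Lymphocyte and natural killer cell markers summed to 12.0 to 15.96 and 12.9 to 14.6 CPM. Of these 2 lists 4 of 11 and 2 of 15 genes passed the filter on low counts, and 0 were called.

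Clock genes differed between the groups, with 2 of 4 activator-arm genes risen and 2 of 9 repressor and output genes fallen. An index of clock phase, obtained by subtracting the average log2 CPM of 9 repressor and output genes from that of 4 activator-arm genes, was −3.16 to −1.31 in wild-type and −0.90 to 0.11 in knockout libraries, which do not overlap. Within the knockout, replicates 2 and 4 had both the higher index (0.11 and 0.10) and the higher Cxcl12. Knockout replicates 1 and 3 had the lower index (−0.90 and −0.82) and the lower Cxcl12. Within the wild type, replicate 1 had the lowest index (−3.16) and the highest Cxcl12 (4558 normalized counts). Wild-type replicate 4 had the highest index (−1.31) and the lowest Cxcl12 (3845). With group means subtracted, the r of Cxcl12 was −0.42 with the activator-arm average and 0.17 with the repressor and output average. With this index as a covariate, the fit in which Cxcl12 did not pass, 1 gene in all passed, namely Nppb. Nppa did not pass in that fit either (edgeR adjusted p = 0.171), although its log2 fold change was −5.43 or lower in every alternative. The SE of Cxcl12 was 0.10 in that fit, against 0.05 without the index. Not passing there is thus not particular to Cxcl12. For Cxcl12 the clock index and the genotype cannot be told apart in these 8 libraries.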

How the data were processed

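RNA-seq of 8 left ventricular samples gave a deposited table of gene counts and a deposited table of normalized counts (a signal scaled per library by the authors), together with log2 fold changes and p-values from the authors' own comparison. The submitters' processing notes name STAR, DESeq2 and mm10. The sources used here do not name the counter, the strandedness it assumed or its annotation. Gene models were matched by ID to GENCODE M21 (GRCm38), and promoters came from RefSeq.

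The counts were tested with edgeR 4.0.16 in R 4.3.3 (TMM scaling, filterByExpr, robust quasi-likelihood fit, Benjamini-Hochberg adjusted p under 0.05), all 8 libraries in 1 fit without covariates. A run of the fit on simulated counts drew all 8 libraries independently, so it does not cover the likeness between some knockout replicates. CPM per kilobase used TMM-scaled libraries and the union of exons. Alternatives were DESeq2 1.42.0, limma-voom (limma 3.58.1), other scaling and filters, a clock index as covariate, a replicate block and leaving out each library. The fit without robust estimation was added after seeing the data. Named genes were the 9 genes, the called and the 4 smallest-p genes of each pathway list, the genes most like Cxcl12 or Cxcr4, and Nppa and Nppb, of which 2 are not reported here. Ackr3, Cx3cr1, Ccr1, Ccr2, Cxcr2 and Cxcr3 were added for their role after their values were seen. The 9 genes and all lists were chosen with earlier results of these data known. Intervals cover counting error only.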

Additional observations from a re-analysis of the deposited data

Results flagged for a closer look

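In 102 groups of 4 libraries, over 51 genes, 5 had a library that stood apart from the other 3 by Dixon's criterion, and chance gives about 1 in 20. Cx3cl1 was at 193 normalized counts in wild-type replicate 3, against 155.9 to 160.2 in the other wild-type libraries. Wild-type replicate 2 stood apart for 3 genes. In it Ccl11 was at 67.7 normalized counts, against 34.7 to 39.7. Mapk3 was at 552 normalized counts there, against 428 to 443. Nppa was at 628 normalized counts there, against 327 to 378. Loxl1 was at 612 normalized counts in knockout replicate 1, against 569.6 to 575 in the other knockout libraries. The genes added for their role were not screened. Among them, Ccr1 was at 54.9 normalized counts in wild-type replicate 2, against 14.1 to 18.3 in the other wild-type libraries.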

How the results depend on the processing

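Cxcl12 stayed past the threshold in 15 of 16 alternatives, with log2 fold changes of −0.40 to −0.32 over the fits without 1 library, and 0 of the 9 genes passed with the clock index as covariate. The 176 genes called in all became 287 with DESeq2, 643 with no low-count filter, 1 with the clock index, and 36 to 259 without 1 library (50 without wild-type replicate 1, 36, 82 and 104 without knockout replicates 2, 1 and 3). With no low-count filter the calls were 1 ligand, 2 receptors, 4 heparan sulfate genes, 1 NF-κB gene and 2 interferon-γ genes. DESeq2 called 1 receptor and 1 heparan sulfate gene. The 1 interferon-γ call became 0 with the clock index, with limma-voom and without robust estimation. Without 1 library the calls were 0 to 2 receptors, 0 to 1 signalling partners, 0 to 1 heparan sulfate genes and 0 to 1 interferon-γ genes, the highest receptor, partner and heparan sulfate counts being without wild-type replicate 3. With a replicate block, 186 genes and 1 of the 9 passed, and same-numbered libraries did not deviate together (r −0.0846 to 0.0158). Signs turned, with no call on either side, for Ccl2 under limma-voom (−0.023) and, with the clock index, for Ccl6 (0.60), Ccl9 (0.69), Cxcl14 (0.045), Ccl11 (0.072) and Vcam1 (0.40). Without 1 library Cxcl1 ran from −0.44 to 0.19 and Ccl2 from −0.084 to 0.14. The causes were not tested. Depth limits Cxcl1, Cxcl9 and Cxcl10, at 23 or fewer reads per library.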
